A study of Mus musculus with 22 samples.

Results

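Ovalbumin (OVA), a protein of egg white, is a standard allergen for models of allergic airway disease in mice, and the lungs of an OVA arm were set here against those of a saline arm. The comparison took the libraries that the labels place in the OVA arm without particulate matter (PM), 6 in number, and those placed in the saline arm without PM, also 6, which were 12 of the 22 libraries of the series. Polyadenylated RNA had been sequenced from the right lung (caudal lobes) of C57BL/6 mice, and the other 10 libraries came from the same arms after 3 µg of PM. The question was how the lung transcriptome of the OVA arm differed when no PM was given. OVA lungs are C57BL/6, sensitised with OVA and not exposed to PM, and saline lungs are C57BL/6, sensitised with saline and not exposed to PM, per the labels. The protocol text also names OVA/Sal and OVA/OVA mice, so that the arms are called by their labels only, and age in numbers, sex and the identity of single animals are not given there. Separate animals are named by no label, so that a p-value here measures only how far these libraries scatter, which may be technical. Each group is given as 5 samples in the design text, whereas 6 library columns per group were used here. Whether each column is a sample of its own is therefore not settled by the labels. Saline replicates 5 and 6 were the pair closest to each other in their group, with a chi-square per degree of freedom of 3.39 between their counts (sampling noise alone gives about 1), against 3.86 to 52.4 for the other saline pairs. Counting the pair once left the calls within 1.5 times of those given below, at 1948 higher and 1127 lower genes without replicate 5 and 1939 and 1161 without replicate 6.

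In allergic airway disease, T helper 2 cells and innate lymphoid cells release interleukins 4, 5 and 13. Interleukin 5 sustains eosinophils, and interleukin 4 switches B cells to IgE. Interleukins 4 and 13 signal through a shared receptor and STAT6 to turn airway secretory cells into mucus-producing goblet cells. They also push macrophages into an alternatively activated state. Whole lung RNA holds all of these cells together with alveolar epithelium, endothelium and muscle, so that fewer cells of a type and less RNA per cell cannot be told apart in any result below.

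Counts of 1.84 M to 23.3 M per library lay behind the comparison (median 13.9 M), with 13.7 M the median of OVA lungs and 14.5 M that of saline lungs. Levels are normalised counts (CPM, per 1 M reads) scaled by trimmed means, not divided by gene length, and for each group the lowest, the median and the highest of the 6 libraries are given. OVA replicate 4 (1.84 M), saline replicate 4 (3.09 M) and saline replicate 3 (5.72 M) were the shallowest, and lay together at one end of the second principal component, which held 25.9% of the variance. The first component, with 47.8%, separated the arms, and OVA replicate 2 lay nearest to the saline libraries on it. That library was the lowest of the 6 OVA libraries for 63.4% of the genes that were higher in OVA lungs and the highest for 62.7% of those that were lower. Xist, the RNA that silences an X chromosome in females, stood at 0.632 CPM (5 counts) in OVA replicate 5 and at 223 to 440.3 CPM in the other 11 libraries. The Y-linked genes Ddx3y, Kdm5d and Uty were listed at 0 in all 12, and Eif2s3y, also Y-linked, held 1 count, in saline replicate 6. The globin genes Hba-a1 and Hbb-bs were listed at 0 in all 12 as well, so that a row of 0 need not mean absence. Without OVA replicate 5 the calls described next numbered 2008 higher and 1306 lower.

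Of 14632 genes tested, edgeR's quasi-likelihood F test called 3456 at a Benjamini-Hochberg adjusted p under 0.05 (23.6%), 2100 higher (14.4%) and 1356 lower (9.27%) in OVA lungs. Rises were larger than falls. Among the higher genes 780 passed a log2 fold change of 1, 226 passed 2 and 61 passed 3, whereas 52 of the lower genes fell by more than 1. In 1092 genes every OVA library lay above every saline library (7.46% of those tested), and in 423 every OVA library lay below (2.89%). The median log2 fold change was 0.77 over the higher genes, -0.46 over the lower genes and -0.02 over all genes tested. Without OVA replicate 6 the lower calls numbered 830, without OVA replicate 1 they numbered 860, and in both cases that is under the count with all libraries by over 1.5 times.

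**Figure D1:**
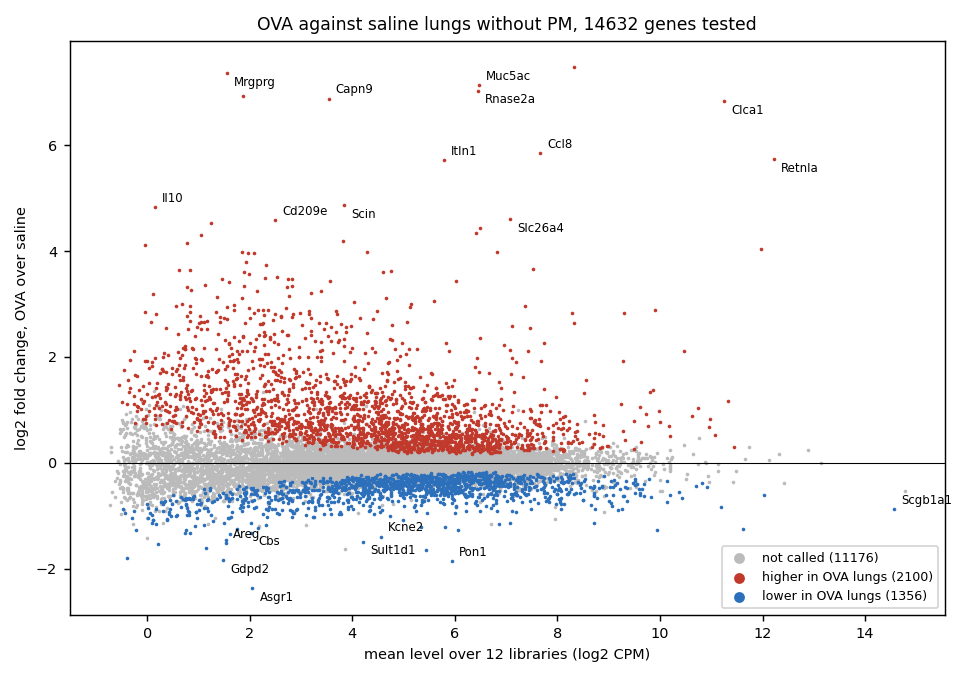
Each point is 1 of 14632 genes, with its mean level over the 12 libraries (log2 CPM) on the horizontal axis and its log2 fold change, OVA over saline, on the vertical axis. Red points are the 2100 genes called higher and blue points the 1356 called lower; the rises reach beyond 7 on the log2 scale and the falls end near -2.4.

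Among the largest rises were genes known from goblet cells, eosinophils and alternatively activated macrophages. By the rule of largest change without overlap, the names were Mrgprg, Muc5ac, Rnase2a, Capn9, Clca1, Ccl8, Retnla, Itln1, Scin, Il10, Slc26a4, Cd209e, Bcat1, Fcgbp and Saa3. Scin, which encodes the actin-severing protein scinderin, stood at 3.28, 29.2 and 40.5 CPM in OVA lungs, against 0.396, 0.994 and 2.26 CPM in saline lungs (log2 fold change 4.87 ± 0.59, edgeR adjusted p = 4.43e-05). Cd209e, a C-type lectin receptor, stood at 3.02, 11.7 and 15.3 CPM in OVA lungs, against 0.335, 0.414 and 0.618 CPM in saline lungs (log2 fold change 4.58 ± 0.43, edgeR adjusted p = 6.88e-06). Bcat1, the cytosolic enzyme that starts the breakdown of branched-chain amino acids, stood at 0.887, 4.39 and 7.52 CPM in OVA lungs, against 0.0508, 0.239 and 0.565 CPM in saline lungs (log2 fold change 4.54 ± 0.59, edgeR adjusted p = 8.39e-05). In each of these the OVA library with the lowest value still lay above all saline libraries. Mrgprg, a Mas-related receptor, held 420 counts over the OVA libraries and 2 over the saline libraries (edgeR adjusted p = 1.65e-05).

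Among the type 2 cytokines and alarmins, 12 of 12 listed genes were in the file, 5 were tested, and 3 rose and 2 fell. Without any single saline library 5 rose, without OVA replicate 6, 2 rose, and without the 3 shallowest libraries 6 rose and 1 fell. With libraries left out, the expression filter asked for enough reads in fewer libraries, so members not tested above could enter these counts. Il33, the alarmin that barrier and stromal cells release on damage, stood at 127, 199 and 250.3 CPM in OVA lungs, against 100.4, 111 and 137 CPM in saline lungs (log2 fold change 0.75 ± 0.14, edgeR adjusted p = 0.00117), and the groups overlapped. Il4, the cytokine of T helper 2 differentiation and IgE switching, stood at 0.746, 1.06 and 1.33 CPM in OVA lungs, against 0.176, 0.318 and 0.618 CPM in saline lungs (log2 fold change 1.46 ± 0.31, edgeR adjusted p = 0.00341). Il10, an anti-inflammatory cytokine, stood at 1.42, 1.85 and 3.08 CPM in OVA lungs, against 0, 0.0618 and 0.670 CPM in saline lungs (log2 fold change 4.83 ± 0.56, edgeR adjusted p = 3.23e-05), and the groups did not overlap. Areg, an EGF receptor ligand of repair, ran the other way, at 0.599, 1.08 and 2.39 CPM in OVA lungs, against 3.35, 4.03 and 7.35 CPM in saline lungs (log2 fold change -1.52 ± 0.27, edgeR adjusted p = 0.000891), again without overlap. Tslp, an epithelial alarmin, fell as well (log2 fold change -0.50 ± 0.17, edgeR adjusted p = 0.0402), but not past the test without the 3 shallowest libraries, nor without OVA replicate 1, 3, 4 or 6 or saline replicate 1, 2, 4 or 5. The effector cytokines did not pass the expression filter, which asked for enough reads in 6 libraries. Il13, the main driver of goblet cell change, had 167 counts over the OVA libraries, against 3 over the saline libraries, with 0.177, 2.20 and 4.37 CPM in OVA lungs, against 0, 0 and 0.123 CPM in saline lungs. Il5, which sustains eosinophils, had 64 counts over the OVA libraries, against 12 over the saline libraries, with 0, 0.890 and 1.33 CPM in OVA lungs, against 0, 0.0817 and 0.451 CPM in saline lungs. Il17a, the cytokine of neutrophil-recruiting T cells, had 115 counts over the OVA libraries, against 2 over the saline libraries, and Il21, made by follicular helper T cells, had 96 counts over the OVA libraries, against 3 over the saline libraries. In a fit without the filter the edgeR adjusted p was 0.000249 for Il13, 0.0109 for Il5, 0.000225 for Il17a and 6.98e-05 for Il21. Il13, Il17a and Il21 had OVA medians of 2.20, 1.825 and 1.42 CPM, above that of Il4, which passed the filter. Their lowest OVA values were in replicate 2, at 0.177, 0.222 and 0.399 CPM, and Il5 was at 0 in 1 OVA library.

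Receptors and signalling genes of this axis gave 11 higher and 0 lower of 18 tested, with a median log2 fold change of 0.57, against -0.02 over all genes. Il5ra, the interleukin 5 receptor chain of eosinophils and B cells, stood at 2.66, 7.83 and 10.2 CPM in OVA lungs, against 0.670, 1.42 and 2.83 CPM in saline lungs (log2 fold change 2.18 ± 0.36, edgeR adjusted p = 0.000485). Il1rl1, the receptor for interleukin 33, stood at 14.6 CPM in OVA lungs, against 6.93 CPM in saline lungs at the median (log2 fold change 1.01 ± 0.20, edgeR adjusted p = 0.00238). Il9r, the interleukin 9 receptor, and Socs1 and Cish, inhibitors that cytokine signalling itself induces, rose by 1.20, 1.14 and 0.82 on the log2 scale. The receptor chains that bind interleukins 4 and 13 and their transcription factor did not pass the test. Il4ra stood at 179.8, 205 and 227 CPM in OVA lungs, against 181, 202 and 231 CPM in saline lungs (log2 fold change 0.00 ± 0.08, edgeR adjusted p = 0.996), Stat6 had a log2 fold change of 0.05 ± 0.06 and Il13ra1 of 0.06 ± 0.11. The groups overlapped in all 3 of these. Il13ra2, the decoy receptor for interleukin 13, was under the filter with 82 counts over the OVA libraries, against 4 over the saline libraries (edgeR adjusted p without the filter = 0.00249).

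Chemokines of type 2 inflammation and their receptors moved together: 14 of 14 tested rose, at a median log2 fold change of 2.15, and in 10 of them every OVA library lay above every saline library. Ccl8, a ligand of CCR8 in mice, stood at 222, 400.2 and 537 CPM in OVA lungs, against 4.09, 6.80 and 12.8 CPM in saline lungs (log2 fold change 5.85 ± 0.29, edgeR adjusted p = 4.05e-08). Ccl11 and Ccl24, the eotaxins that attract eosinophils through CCR3, rose by 3.60 and 2.14, and Ccr3 itself by 2.16. The monocyte attractants Ccl2, Ccl7 and Ccl12, which act on CCR2, rose by 3.33, 3.49 and 2.76, and Ccr2 by 1.08. Ccl17 and Ccl22, ligands of CCR4 made by dendritic cells, rose by 1.16 and 1.22, and Ccr4, carried by T helper 2 cells, by 1.15. Ccl7 stood at 5.77, 9.15 and 12.6 CPM in OVA lungs, against 0, 0.870 and 0.988 CPM in saline lungs (log2 fold change 3.49 ± 0.25, edgeR adjusted p = 1.08e-06), with no overlap. Ccl6 rose by 1.35, but not past the test without OVA replicate 4 or saline replicate 1, 2, 5 or 6.

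Goblet cell genes rose in 15 of 17 tested cases, with 0 lower and a median log2 fold change of 2.84, and 12 of the 15 did not overlap between the groups. Muc5b, the gel-forming mucin that airways make at rest, stood at 111, 237 and 338 CPM in OVA lungs, against 17.2, 35.4 and 70.3 CPM in saline lungs (log2 fold change 2.58 ± 0.31, edgeR adjusted p = 4.17e-05), and the inducible Muc5ac at 21.6, 194 and 273 CPM in OVA lungs, against 0.527, 1.24 and 2.64 CPM in saline lungs (log2 fold change 7.13 ± 0.60, edgeR adjusted p = 3.49e-06). All OVA libraries lay above all saline libraries for both, with OVA replicate 2 the lowest of its group. The transcription factors Spdef and Foxa3, which specify goblet cells, rose by 2.40 and 2.84 on the log2 scale. Agr2, the isomerase that folds mucins, Ern2, the stress sensor of mucous cells, and Tff2, a trefoil peptide, rose by 3.63, 3.98 and 3.43. Itln1, the lectin intelectin 1, stood at 10.2, 104 and 182 CPM in OVA lungs, against 0.670, 1.48 and 5.47 CPM in saline lungs (log2 fold change 5.72 ± 0.62, edgeR adjusted p = 1.95e-05). Muc1 and Muc20, membrane mucins, did not pass (0.11 ± 0.09 and -0.05 ± 0.12). Tff1, a trefoil peptide under the filter, had 368 counts over the OVA libraries, against 1 over the saline libraries, and Retnlb, a resistin-like protein of goblet cells, 357 counts over the OVA libraries, against 3 over the saline libraries (edgeR adjusted p without the filter = 0.000129 and 0.000147).

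The enzymes that build mucin sugars changed less uniformly, with 9 higher and 1 lower of 21 tested and a median of 0.27. Galnt6, Galnt7 and Galnt12, which attach the first sugar to serine and threonine, rose by 1.01, 0.90 and 1.04, and Fut2, which adds fucose, by 2.14. Galnt2 and St3gal1 did not pass (0.18 ± 0.09 and 0.04 ± 0.12). Ion and water transport genes of the airway surface split: 2 of 13 rose and 6 fell. Slc26a4, the anion exchanger pendrin, stood at 36.6, 287 and 465 CPM in OVA lungs, against 8.50, 11.6 and 12.6 CPM in saline lungs (log2 fold change 4.61 ± 0.46, edgeR adjusted p = 1.01e-05), with the OVA libraries all above the saline ones. Scnn1b and Scnn1g, subunits of the epithelial sodium channel, fell to medians of 71.8 CPM in OVA lungs, against 149.7 CPM in saline lungs for Scnn1b (-0.91 ± 0.16) and 115 CPM in OVA lungs, against 175 CPM in saline lungs for Scnn1g (-0.50 ± 0.14). Scnn1a, the third subunit (-0.28 ± 0.22), and the chloride channels Cftr (0.22 ± 0.08) and Ano1 (0.16 ± 0.10) did not pass.

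Chitinases and resistin-like genes gave 7 higher and 0 lower of 9 tested. Chia1, the acidic chitinase, stood at 236, 1074 and 2025 CPM in OVA lungs, against 104, 157 and 229.7 CPM in saline lungs (log2 fold change 2.84 ± 0.39, edgeR adjusted p = 0.00013), and Chil1, a chitinase-like protein without enzyme activity, at 2117, 3858 and 4972 CPM in OVA lungs, against 1231, 1607 and 2149.7 CPM in saline lungs (log2 fold change 1.17 ± 0.21, edgeR adjusted p = 0.00101). Retnla, which alternatively activated macrophages express strongly, stood at 2085, 9016 and 15287 CPM in OVA lungs, against 53.2, 133 and 473 CPM in saline lungs (log2 fold change 5.73 ± 0.61, edgeR adjusted p = 1.78e-05). Chia1 and Retnla were free of overlap, and Chil1 was not. In the arginine and nitric oxide list 4 of 14 rose and 1 fell. Arg1, the arginase that competes for the substrate of nitric oxide synthase, stood at 9.62, 46.4 and 71.9 CPM in OVA lungs, against 3.69, 5.01 and 5.79 CPM in saline lungs (log2 fold change 3.11 ± 0.39, edgeR adjusted p = 6.21e-05). Slc7a2, an arginine transporter, rose by 1.09, Ddah2, which clears an inhibitor of nitric oxide synthase, fell by 0.59 on the log2 scale, and Nos2 (-0.06 ± 0.23) and Odc1 (-0.00 ± 0.12) did not pass.

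**Figure D2:**
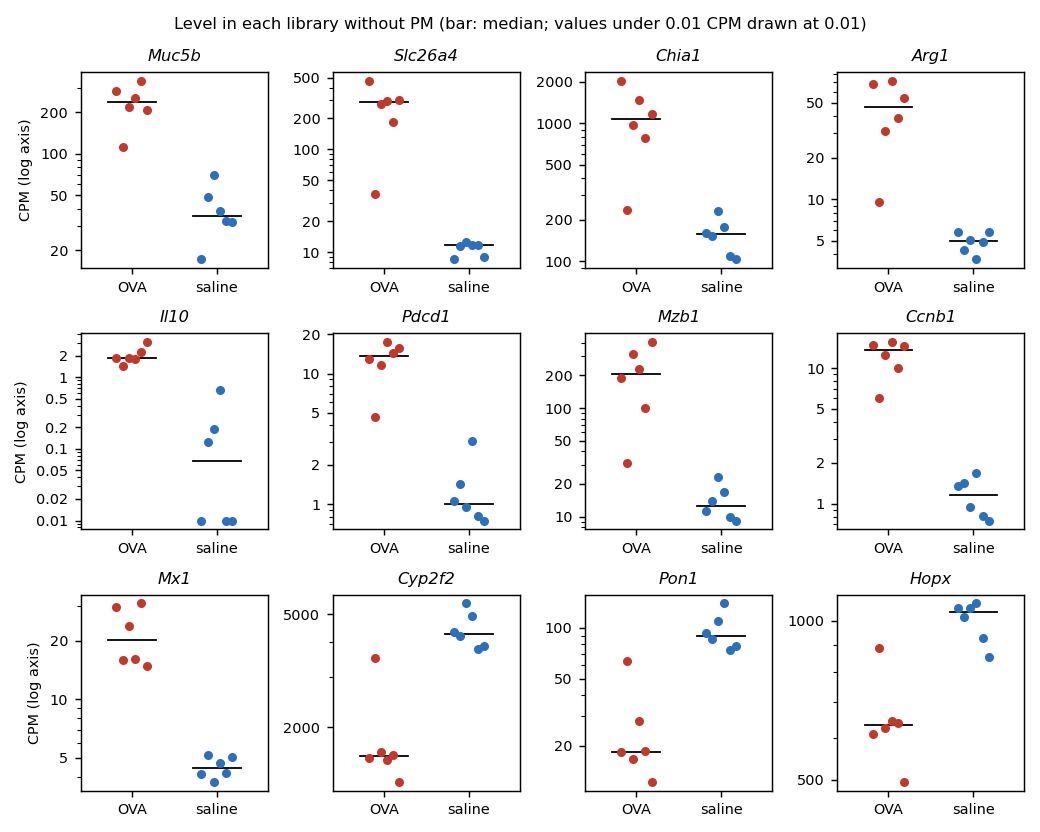
CPM of 12 genes on a log axis in each library, OVA lungs on the left (red) and saline lungs on the right (blue), with the median as a bar. In the 9 genes of the upper rows and the first panel of the last row that rose, all OVA points lie above all saline points, and for most genes 1 OVA library, replicate 2, sits nearest to the saline points.

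Eosinophil markers gave 6 higher and 0 lower of 9 tested, with a median of 2.16. Rnase2a, an eosinophil-type ribonuclease, stood at 24.2, 155 and 337 CPM in OVA lungs, against 0.792, 1.45 and 2.35 CPM in saline lungs (log2 fold change 7.03 ± 0.62, edgeR adjusted p = 4.57e-06), and Prg2, the major basic protein of eosinophil granules, rose by 3.96. Siglecf, which eosinophils share with alveolar macrophages, did not pass (0.20 ± 0.29). Epx, the eosinophil peroxidase, held 79 counts over the OVA libraries and 0 over the saline libraries, and was at 0 in 1 OVA library as well. Of the neutrophil markers 2 of 12 rose, a share close to the 14.4% of all genes, at a median of 0.12, and S100a9 (-0.29 ± 0.33) and Csf3r (0.21 ± 0.14) did not pass. Of the mast cell and basophil list 2 rose and 1 fell among 13 tested, a share of calls close to the 23.6% of all genes. The lowest log2 fold change in this list was -0.91. Mcpt1, a protease of mucosal mast cells, stood at 0.887, 2.22 and 7.81 CPM in OVA lungs, against 0, 0.283 and 0.432 CPM in saline lungs (log2 fold change 3.64 ± 0.62, edgeR adjusted p = 0.000664), and Mcpt2, the other mucosal protease, had 330 counts over the OVA libraries, against 9 over the saline libraries (edgeR adjusted p without the filter = 0.000132). Cma1 and Mcpt4, the proteases of connective tissue mast cells, did not pass (0.30 ± 0.21 and 0.19 ± 0.25), nor did Hdc, which makes histamine (-0.25 ± 0.12). Without OVA replicate 2 the mast cell and basophil list had 6 higher members, without OVA replicate 5 it had 5, without saline replicate 3 or 4 it had 4, and without the 3 shallowest libraries 6. Here too, members under the filter with all libraries could enter the counts.

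Markers of monocytes and interstitial macrophages gave 16 higher and 1 lower of 20, at a median of 1.05. Ms4a7, of monocyte-derived macrophages, rose by 2.60, and Folr2 and Cd163, of perivascular macrophages, by 1.92 and 1.67. Ms4a7 stood at 37.8, 44.8 and 59.3 CPM in OVA lungs, against 5.23, 8.13 and 11.1 CPM in saline lungs (log2 fold change 2.60 ± 0.17, edgeR adjusted p = 6e-07), without overlap. Cx3cr1, Ly6c2 and Lyve1 did not pass (0.20 ± 0.13, 0.01 ± 0.17 and -0.12 ± 0.15), and Ly6c1, which endothelium also expresses, fell (log2 fold change -0.68 ± 0.13, edgeR adjusted p = 0.00176). Among alveolar macrophage markers 5 of 21 were higher and 0 lower at a median of 0.20, a share of calls close to the 23.6% of all genes. Marco (-0.02 ± 0.63), Fabp4 (0.05 ± 0.14) and Car4 (-0.13 ± 0.12) did not pass, while Mrc1, the mannose receptor, rose by 1.08. Without the 3 shallowest libraries 9 of this list rose, and without saline replicate 3, 8 rose. Genes of macrophages that take up lipid and break down matrix gave 9 higher and 1 lower of 15, with Trem2, a lipid receptor, at 27.8, 40.3 and 78.5 CPM in OVA lungs, against 8.54, 12.1 and 25.3 CPM in saline lungs (log2 fold change 1.74 ± 0.29, edgeR adjusted p = 0.00054).

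Dendritic cell genes rose in 17 of 23 cases, with 0 lower and a median of 0.86. Batf3 and Xcr1, of the cross-presenting type 1 subset, rose by 1.83 and 1.01, and Irf4 and Clec10a, of the type 2 subset, by 2.66 and 1.53. Irf4 is also counted in the plasma cell list below, and which cells its rise came from was not tested. Cd86, a costimulatory gene, rose by 1.04. Ccr7, which guides mature cells to lymph nodes (-0.07 ± 0.11), Clec9a (0.02 ± 0.13) and Zbtb46 (-0.07 ± 0.15) did not pass. In the MHC class II list 12 of 12 genes rose, at a median of 0.93, with Ciita, their master regulator, at 44.3, 64.6 and 77.5 CPM in OVA lungs, against 15.1, 24.7 and 28.8 CPM in saline lungs (log2 fold change 1.36 ± 0.15, edgeR adjusted p = 2.62e-05). The class II chain gene H2-Ab1 stood at 895, 1106 and 1364 CPM in OVA lungs, against 495, 579.7 and 714 CPM in saline lungs (log2 fold change 0.93 ± 0.12, edgeR adjusted p = 6.42e-05), also without overlap.

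T cell markers rose in 13 of 20 cases at a median of 0.57, and the rise was seen in Cd4, the coreceptor of helper cells (log2 fold change 1.25 ± 0.14, edgeR adjusted p = 2.2e-05), while Cd8a (0.31 ± 0.13) and Cd8b1 (-0.06 ± 0.19), the coreceptor chains of cytotoxic cells, did not pass. Genes of regulatory T cells, activation and checkpoints gave larger values, with 18 of 20 higher, 1 lower and a median of 1.11. Pdcd1, the checkpoint receptor PD-1, stood at 4.66, 13.6 and 17.4 CPM in OVA lungs, against 0.748, 0.998 and 3.02 CPM in saline lungs (log2 fold change 3.47 ± 0.35, edgeR adjusted p = 1.11e-05). Tigit, another inhibitory receptor, stood at 2.66, 4.07 and 8.67 CPM in OVA lungs, against 0.188, 0.356 and 0.865 CPM in saline lungs (log2 fold change 3.47 ± 0.40, edgeR adjusted p = 2.7e-05). Ctla4 stood at 5.14, 8.93 and 11.4 CPM in OVA lungs, against 1.28, 1.66 and 2.01 CPM in saline lungs (log2 fold change 2.37 ± 0.21, edgeR adjusted p = 4.99e-06). In all 3 the groups were separate. Lag3, Tnfrsf9, which encodes the costimulator 4-1BB, and Pdcd1lg2, a PD-1 ligand, rose by 2.24, 3.25 and 2.75. Foxp3, the transcription factor of regulatory T cells, rose by 0.72 (3.68 CPM in OVA lungs, against 2.23 CPM in saline lungs), and Ikzf4 fell by 0.57, a call that was lost in 8 of the 12 fits without 1 library. Cytotoxic and natural killer genes gave 2 of 17 higher and 0 lower, at a median of 0.04, a share under the 23.6% of all genes. Without OVA replicate 3 or 6 or saline replicate 5 or 6, 1 of the cytotoxic genes rose. Gzma (-0.37 ± 0.15), Prf1 (-0.13 ± 0.14) and Ncr1 (-0.12 ± 0.16) did not pass.

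B cell genes rose in 17 of 18 cases, with a median of 1.21 and 15 free of overlap. Ms4a1, which encodes CD20, stood at 56.9, 104 and 126 CPM in OVA lungs, against 26.5, 32.0 and 36.9 CPM in saline lungs (log2 fold change 1.56 ± 0.18, edgeR adjusted p = 2.49e-05), and Cr2, a complement receptor of B cells, rose by 1.14. Plasma cell genes gave 16 higher and 0 lower of 19, at a median of 1.54. Mzb1, a chaperone of antibody secretion, stood at 31.0, 208 and 406 CPM in OVA lungs, against 9.20, 12.6 and 23.4 CPM in saline lungs (log2 fold change 3.98 ± 0.51, edgeR adjusted p = 7.2e-05). Jchain, the joining chain of IgA and IgM, stood at 248, 1463 and 3148 CPM in OVA lungs, against 126, 213 and 369 CPM in saline lungs (log2 fold change 2.88 ± 0.52, edgeR adjusted p = 0.00106), with OVA replicate 2 within the range of saline lungs. Eaf2, a gene of germinal centre B cells, stood at 2.84, 11.5 and 21.1 CPM in OVA lungs, against 0.602, 1.18 and 2.45 CPM in saline lungs (log2 fold change 3.31 ± 0.48, edgeR adjusted p = 0.000184). Prdm1 (0.36 ± 0.13) and Sdc1 (-0.22 ± 0.09), which epithelium also expresses, did not pass. Of 16 genes of lymphoid tissue organisation 9 rose and 0 fell. Cxcl13, the chemokine that draws B cells into follicles, stood at 44.2, 68.3 and 73.3 CPM in OVA lungs, against 5.79, 7.65 and 11.7 CPM in saline lungs (log2 fold change 3.00 ± 0.18, edgeR adjusted p = 2.6e-07), Tnfsf11 and Lta, ligands of the lymphotoxin and TNF family, rose by 2.68 and 1.90, and Cxcl12 (0.19 ± 0.19) and Ltbr (-0.04 ± 0.12) did not pass. Among Fc receptors 8 of 14 rose. Pigr, which carries IgA across epithelium, stood at 219, 632 and 694 CPM in OVA lungs, against 65.3, 82.0 and 131 CPM in saline lungs (log2 fold change 2.64 ± 0.26, edgeR adjusted p = 1.1e-05), and Fcgr2b, the inhibitory IgG receptor, rose by 1.97.

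Genes of protein folding in the endoplasmic reticulum rose in 13 of 24 cases and fell in 1, at a median of 0.45. Derl3, of the degradation pathway, and Sdf2l1 and Edem1, of quality control, rose by 3.04, 1.27 and 1.33. By the mean of this list, OVA replicate 2 was the lowest OVA library and replicate 6 the highest, as for the plasma cell list. The same libraries were the lowest and the highest of OVA lungs for Derl3, Sdf2l1 and Edem1. Lists can share members, as with Irf4 above, and Derl3, Edem1 and Creld2 of the folding list are also in the plasma cell list. The match of lowest and highest libraries between these lists therefore rests partly on the same genes. Whether the rise of the folding genes is separate from that of the plasma cell genes was not tested. The chaperones Hsp90b1 and Pdia4 rose by 0.70 and 0.72, and Hspa5, the main chaperone, by 0.44, a call lost without OVA replicate 1 or 6. Atf4 (-0.14 ± 0.07) and Herpud1 (-0.03 ± 0.07) did not pass. The ER stress element, to which ATF6 and NF-Y are known to bind, was searched in the promoters of this list, and stretches are shown from 3 of the members that rose and hold it. The letters searched were CCAAT, any 9 bases and CCACG, on both strands, in the 250 bases before the start of each gene (RefSeq, GRCm38.p6, 1 window per gene). They were found in 9 of 22 windows of the list (40.9%) and in 15 of all 11084 windows (0.135%). Of the 9 members with a match 5 rose, and Canx (0.20 ± 0.07), Syvn1 (0.47 ± 0.18), Pdia6 (0.35 ± 0.14) and Dnajc3 (0.18 ± 0.08) did not pass. The letters stand in capitals below, 5′ to 3′ on the strand of the gene, in the reverse direction for Derl3 and Creld2.
Hspa5: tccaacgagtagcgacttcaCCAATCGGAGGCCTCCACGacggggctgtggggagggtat
Derl3: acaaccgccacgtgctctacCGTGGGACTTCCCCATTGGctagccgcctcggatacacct
Creld2: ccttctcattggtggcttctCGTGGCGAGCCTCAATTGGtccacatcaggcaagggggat
These lie at chr2:34772005-34772064 and chr10:75893222-75893281 and chr15:88819500-88819559, all on the plus strand. Creld2, an isomerase-like protein of the endoplasmic reticulum, rose by 0.80.

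Cell division genes rose without exception in the mitosis list, 26 of 26 at a median of 2.62, and each of them was free of overlap. Ccnb1, the cyclin of mitotic entry, stood at 6.03, 13.6 and 15.6 CPM in OVA lungs, against 0.748, 1.15 and 1.68 CPM in saline lungs (log2 fold change 3.47 ± 0.27, edgeR adjusted p = 2.66e-06). Mki67, the proliferation marker, stood at 29.9, 91.1 and 128 CPM in OVA lungs, against 8.40, 9.35 and 15.1 CPM in saline lungs (log2 fold change 3.06 ± 0.30, edgeR adjusted p = 8.81e-06), and Top2a, which untangles DNA, at 28.1, 65.5 and 88.3 CPM in OVA lungs, against 6.73, 8.35 and 10.7 CPM in saline lungs (log2 fold change 2.94 ± 0.25, edgeR adjusted p = 3.49e-06). The lowest OVA library for these was replicate 2, which still lay above all saline libraries. Of 26 DNA replication genes 25 rose, at a median of 1.08. Mcm10 and Rrm2, of origin firing and nucleotide supply, rose by 2.93 and 2.58, Pcna by 0.35, and Rfc3 did not pass (0.33 ± 0.16). The element of late cell cycle promoters, TTTGAA in its core, was searched in the same windows on both strands. It was found in 9 of 22 windows of the mitosis list (40.9%) and in 1203 of 11084 (10.9%). Stretches of 2 members are shown with it in capitals, since both encode regulators of mitotic entry and exit, the kinase Cdk1 (2.73 ± 0.26) and the activator Cdc20 (2.07 ± 0.17).
Cdk1: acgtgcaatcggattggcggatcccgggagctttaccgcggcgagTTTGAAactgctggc
Cdc20: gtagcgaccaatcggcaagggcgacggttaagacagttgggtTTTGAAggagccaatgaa
They lie at chr10:69352913-69352972 and chr4:118437344-118437403, both on the minus strand.

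Genes induced by type I interferon rose in 25 of 28 cases, with 0 lower, a median of 0.98 and 20 free of overlap. Mx1, an antiviral GTPase, stood at 14.8, 20.1 and 31.1 CPM in OVA lungs, against 3.77, 4.43 and 5.19 CPM in saline lungs (log2 fold change 2.28 ± 0.21, edgeR adjusted p = 5.64e-06). Zbp1, a sensor of nucleic acids, stood at 35.9, 48.1 and 55.3 CPM in OVA lungs, against 9.81, 12.4 and 15.1 CPM in saline lungs (log2 fold change 1.94 ± 0.14, edgeR adjusted p = 1.05e-06). Irf7, which amplifies interferon production, Oas1a, which makes the activator of RNase L, and Isg15, a ubiquitin-like modifier, rose by 1.82, 1.46 and 1.42. How reads shared by near-identical genes were counted is not given in the sources used here, so that values of Oas1a, the H2 genes and Serpina3n are uncertain. Ifi35 (-0.03 ± 0.11) and Xaf1 (0.27 ± 0.11) did not pass. Mx1 and Zbp1 were separate between the groups, and OVA replicate 6, not replicate 2, was the lowest OVA library for them and for the mean of the list. Of the interferon gamma targets and GTPases 15 of 21 rose. Cxcl9, a ligand of CXCR3 on T cells, stood at medians of 10.5 CPM in OVA lungs, against 0.908 CPM in saline lungs (log2 fold change 3.51 ± 0.17, edgeR adjusted p = 4.05e-08), Cxcl10 rose by 2.87, and Irf1 (0.03 ± 0.06) and Gbp2 (0.18 ± 0.13) did not pass. MHC class I genes gave 13 higher and 0 lower of 17, at a median of 0.52, with the peptide transporter Tap1 at log2 fold change 1.03 ± 0.10, edgeR adjusted p = 6.88e-06.

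The interferon-stimulated response element was searched as GAAA, any 2 bases and GAAA on both strands of the same windows. Of 33 windows of the type I and interferon gamma lists 20 held it (60.6%), against 303 of 11084 (2.73%). Of the windows of all genes called higher 77 of 1602 held it (4.81%), of those called lower 20 of 991 (2.02%), and of those not called 206 of 8491 (2.43%). Stretches of 3 members that rose are shown with the match nearest the gene start in capitals, reversed for Ifit1, an RNA-binding antiviral protein (1.18 ± 0.19). Further matches in these stretches are left in lower case.
Oas1a: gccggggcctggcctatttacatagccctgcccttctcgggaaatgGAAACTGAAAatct
Isg15: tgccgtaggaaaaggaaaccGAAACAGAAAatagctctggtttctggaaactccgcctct
Ifit1: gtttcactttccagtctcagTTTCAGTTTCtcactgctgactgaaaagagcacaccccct
They lie at chr5:120907526-120907585 on the minus strand, chr4:156200845-156200904 on the minus strand and chr19:34640784-34640843 on the plus strand.

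Inflammatory cytokines and neutrophil-attracting chemokines rose in 10 of 16 cases, with 0 lower and a median of 0.79. Cxcl5, made by epithelium, stood at 7.01, 42.8 and 51.6 CPM in OVA lungs, against 0.670, 2.34 and 3.77 CPM in saline lungs (log2 fold change 3.99 ± 0.48, edgeR adjusted p = 4.72e-05), and Cxcl3 at 5.99, 9.50 and 13.2 CPM in OVA lungs, against 0.188, 0.687 and 0.903 CPM in saline lungs (log2 fold change 3.73 ± 0.26, edgeR adjusted p = 8.4e-07). Cxcl1 and Cxcl2 rose by 2.63 and 1.57, and Tnf by 1.23. Il1b (0.44 ± 0.22), Il1a (0.06 ± 0.12) and Il18 (-0.33 ± 0.36) did not pass. The NF-kB letters GGG, any 3 bases and TTCC, searched on both strands, were found in 5 of 13 windows of this list (38.5%) and in 563 of 11084 (5.08%). The match nearest the gene start is shown in capitals for both of the neighbouring genes Cxcl1 and Cxcl2, reversed for Cxcl1. Further matches in these stretches are left in lower case.
Cxcl1: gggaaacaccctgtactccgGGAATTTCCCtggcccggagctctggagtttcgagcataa
Cxcl2: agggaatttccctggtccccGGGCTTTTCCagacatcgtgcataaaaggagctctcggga
They lie at chr5:90891155-90891214 and chr5:90903801-90903860, both on the plus strand.

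Acute phase and iron genes gave 11 higher and 1 lower of 19. Saa3, a serum amyloid of the lung, stood at 67.2, 149 and 324 CPM in OVA lungs, against 5.24, 7.60 and 12.3 CPM in saline lungs (log2 fold change 4.35 ± 0.36, edgeR adjusted p = 3.49e-06). Lcn2, which withholds iron from bacteria, stood at 555, 989 and 1756 CPM in OVA lungs, against 198, 244 and 403 CPM in saline lungs (log2 fold change 1.92 ± 0.27, edgeR adjusted p = 0.000137), and Hp, haptoglobin, fell (log2 fold change -0.74 ± 0.18, edgeR adjusted p = 0.00831). Complement genes gave 13 higher and 1 lower of 26. C3, the central component, stood at 888, 2227 and 4077 CPM in OVA lungs, against 353, 453 and 801 CPM in saline lungs (log2 fold change 2.11 ± 0.30, edgeR adjusted p = 0.000187), Cfb, of the alternative pathway, rose by 2.11, and C3ar1, the receptor of the C3a fragment, stood at 39.0, 44.7 and 50.5 CPM in OVA lungs, against 6.91, 9.32 and 10.7 CPM in saline lungs (log2 fold change 2.33 ± 0.12, edgeR adjusted p = 4.05e-08). The groups were separate for all 3. Serping1, which inhibits the first component, did not pass (-0.01 ± 0.09), nor did C5ar1 (-0.26 ± 0.13). Secreted defence proteins rose in 9 of 16 cases. Reg3g, a lectin that kills bacteria, stood at 103, 255 and 694 CPM in OVA lungs, against 17.5, 22.8 and 101 CPM in saline lungs (log2 fold change 2.97 ± 0.53, edgeR adjusted p = 0.00103), Slpi, a protease inhibitor, rose by 2.84, and Lyz2 (-0.00 ± 0.24) and Wfdc2 (-0.11 ± 0.18) did not pass. Receptors of microbial products gave 11 higher and 1 lower of 23, and 16 higher without the 3 shallowest libraries. Clec7a, the receptor of fungal glucan, rose by 1.57 and Tlr9 by 1.61, and Myd88 (0.14 ± 0.11) and Tlr3 (0.01 ± 0.10) did not pass.

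Proteases of matrix and lysosome gave 15 higher and 0 lower of 26, at a median of 0.82. Mmp12, the macrophage elastase, stood at 38.2, 311 and 842 CPM in OVA lungs, against 17.6, 25.3 and 41.3 CPM in saline lungs (log2 fold change 3.66 ± 0.59, edgeR adjusted p = 0.000452), with OVA replicate 2 inside the range of saline lungs. Timp1, a protease inhibitor, and Ctsk, cathepsin K, rose by 1.91 and 1.53, and Mmp2 (0.42 ± 0.21) and Timp2 (-0.03 ± 0.10) did not pass. Of 27 matrix genes 11 rose and 2 fell. Fn1, fibronectin, stood at 249, 583 and 670.2 CPM in OVA lungs, against 148, 184 and 291 CPM in saline lungs (log2 fold change 1.33 ± 0.23, edgeR adjusted p = 0.000811), again with overlap, Col3a1 rose by 1.12 and Vcan, versican, by 1.57. Eln, elastin (0.05 ± 0.21), Postn (0.01 ± 0.12) and Col1a1 (0.96 ± 0.37) did not pass. Without OVA replicate 1, 3 or 6 or saline replicate 1, 5 or 6 none of the matrix genes fell, and without OVA replicate 6 the higher ones numbered 7. In the coagulation list F10, F7 and F5 rose by 2.16, 1.27 and 1.71, and F3, the tissue factor, did not pass (0.04 ± 0.08); 7 of 22 rose and 0 fell. Eicosanoid genes gave 8 higher and 2 lower of 23, and 16 higher without the 3 shallowest libraries. Alox15, the 15-lipoxygenase of eosinophils and alternatively activated macrophages, stood at 15.3, 48.5 and 66.5 CPM in OVA lungs, against 5.34, 6.87 and 15.6 CPM in saline lungs (log2 fold change 2.32 ± 0.35, edgeR adjusted p = 0.000246), with OVA replicate 2 inside the range of saline lungs, and Hpgd, which inactivates prostaglandins, fell (log2 fold change -0.80 ± 0.14, edgeR adjusted p = 0.000767). Leukocyte adhesion genes gave 10 higher and 4 lower of 17. Selp, P-selectin, rose by 1.86 and Itga4, an integrin of eosinophils and lymphocytes, by 1.46, while Icam1 did not pass (-0.07 ± 0.09).

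By the rule of largest change without overlap the genes that fell included Asgr1, Pon1, Gdpd2, Areg, Sult1d1, Kcne2, Cbs, Cyp2f2, Ppp2r2c, Tmem252, Ces1g, Igfbp3, Gstm1 and Gsta3. Asgr1, a lectin receptor known from liver, stood at 0.427, 0.657 and 3.37 CPM in OVA lungs, against 4.31, 6.79 and 11.1 CPM in saline lungs (log2 fold change -2.37 ± 0.43, edgeR adjusted p = 0.00114). Kcne2, a potassium channel subunit, stood at 8.99, 11.5 and 20.3 CPM in OVA lungs, against 30.8, 34.1 and 39.0 CPM in saline lungs (log2 fold change -1.39 ± 0.15, edgeR adjusted p = 1.86e-05). Cbs, the enzyme that turns homocysteine into cystathionine, stood at 1.20, 1.86 and 3.95 CPM in OVA lungs, against 4.58, 5.68 and 8.04 CPM in saline lungs (log2 fold change -1.32 ± 0.25, edgeR adjusted p = 0.00143). In these the saline library with the lowest value lay above all OVA libraries. Tmem252, Gdpd2 and Ppp2r2c fell by 1.20, 1.84 and 1.23 on the log2 scale.

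Xenobiotic and oxidation genes fell in 19 of 31 cases and rose in 2, at a median of -0.52, and 12 of them lay wholly below the saline libraries. Cyp2f2, the cytochrome of club cells, stood at 1283, 1576 and 3510.0 CPM in OVA lungs, against 3763, 4253 and 5447 CPM in saline lungs (log2 fold change -1.25 ± 0.22, edgeR adjusted p = 0.000869). Pon1, an esterase, stood at 12.2, 18.5 and 63.2 CPM in OVA lungs, against 73.6, 89.7 and 139 CPM in saline lungs (log2 fold change -1.86 ± 0.35, edgeR adjusted p = 0.00137). Gstm1, a glutathione transferase, stood at 196, 240.2 and 406 CPM in OVA lungs, against 547, 560.2 and 640.2 CPM in saline lungs (log2 fold change -1.14 ± 0.15, edgeR adjusted p = 8.79e-05). In all 3 the groups were separate, and OVA replicate 2 lay nearest to the saline libraries. Cyp7b1, which hydroxylates oxysterols, and Cyp1b1 rose, by 1.16 and 0.97. Cyp2e1 (-0.08 ± 0.26) and Por (-0.14 ± 0.11), the reductase that serves the cytochromes, did not pass. Among antioxidant genes 3 of 18 rose and 2 fell, a share of calls not far from the 23.6% of all genes, and 6 rose without the 3 shallowest libraries. Nqo1 fell by 1.02 and Cat, catalase, by 0.62, and Slc7a11, the cystine transporter, rose by 1.35. Gclm (-0.08 ± 0.08), Srxn1 (-0.16 ± 0.09) and Txnrd1 (0.05 ± 0.07) did not pass.

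Club cell genes fell in 8 of 16 cases and rose in 2. Scgb1a1, the secretoglobin that marks club cells, stood at 10552, 16513 and 23936 CPM in OVA lungs, against 21393, 28976 and 46135 CPM in saline lungs (log2 fold change -0.87 ± 0.23, edgeR adjusted p = 0.0138), and the groups overlapped. Scgb3a2, another secretoglobin, fell (log2 fold change -1.26 ± 0.31, edgeR adjusted p = 0.00901), but was not past the test without the 3 shallowest libraries (-0.87), where 5 of the list fell. Scgb3a1 (0.20 ± 0.40) and Cbr2 (-0.39 ± 0.17) did not pass. Of 19 markers of alveolar type 1 cells 11 fell and 0 rose, at a median of -0.47. Hopx stood at 495, 634 and 886 CPM in OVA lungs, against 854, 1037 and 1078 CPM in saline lungs (log2 fold change -0.62 ± 0.12, edgeR adjusted p = 0.00228), and Akap5, Emp2 and Vegfa, the last an endothelial growth factor, fell by 0.73, 0.56 and 0.61. When all 4 groups shared a fit 17 of the list fell. Ager, the receptor that type 1 cells carry in large amounts, did not pass (log2 fold change -0.36 ± 0.13, edgeR adjusted p = 0.0523). Alveolar type 2 genes gave 2 higher and 4 lower of 18. Sftpb, surfactant protein B, fell (log2 fold change -0.62 ± 0.16, edgeR adjusted p = 0.0117), Sftpd, a surfactant lectin, rose (log2 fold change 0.67 ± 0.19, edgeR adjusted p = 0.0204), and Sftpc (-0.52 ± 0.19), Sftpa1 (0.24 ± 0.15) and Abca3 (-0.15 ± 0.11) did not pass. Without OVA replicate 2 the lower genes of the type 2 list numbered 8, and with DESeq2 they numbered 9. Ciliated cell genes gave few calls, with 1 of 22 higher, 0 lower and a median of -0.11. Mcidas, a regulator of the formation of multiciliated cells, stood at 3.12, 4.77 and 6.79 CPM in OVA lungs, against 0.407, 0.674 and 1.13 CPM in saline lungs (log2 fold change 2.74 ± 0.27, edgeR adjusted p = 9.85e-06), whereas Foxj1 (0.17 ± 0.11), Dnah5 (0.06 ± 0.10) and Tubb4b (-0.11 ± 0.09) did not pass.

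Endothelial genes fell in 11 of 24 cases and rose in 0, at a median of -0.48. Gpihbp1, a capillary lipase carrier, stood at 149, 177 and 241 CPM in OVA lungs, against 257, 304 and 421 CPM in saline lungs (log2 fold change -0.78 ± 0.14, edgeR adjusted p = 0.000921), and Tek, Kdr and Pecam1 fell by 0.69, 0.59 and 0.40. Vwf did not pass (0.28 ± 0.26). Without the 3 shallowest libraries 23 of the 24 fell, and 18 fell when all 4 groups shared a fit. Fibroblast, pericyte and mesothelial genes fell in 5 of 21 cases and rose in 0, a share of calls close to the 23.6% of all genes. Over all genes 9.27% were called lower. Inmt, a methyltransferase, stood at 1179, 1559 and 2477 CPM in OVA lungs, against 2615, 2841 and 3628 CPM in saline lungs (log2 fold change -0.83 ± 0.17, edgeR adjusted p = 0.00239), and Pdgfra (-0.26 ± 0.18) did not pass. Smooth muscle genes gave 0 calls of 15 and heart muscle genes, which mouse lungs also express in the wall of pulmonary veins, 0 of 17. At an unadjusted edgeR p under 0.05 there were 1 of the smooth muscle and 1 of the heart muscle genes, and DESeq2 called 0 and 1. Their summed levels overlapped between the arms, 107 to 675.8 CPM in OVA lungs and 177 to 722 CPM in saline lungs for heart muscle, and 889 to 1711 CPM in OVA lungs and 813 to 1567 CPM in saline lungs for smooth muscle. By their means over the list, OVA replicate 4 and saline replicates 3 and 4, the shallow libraries, were the lowest, and the part of this in other results was not tested.

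**Figure D3:**
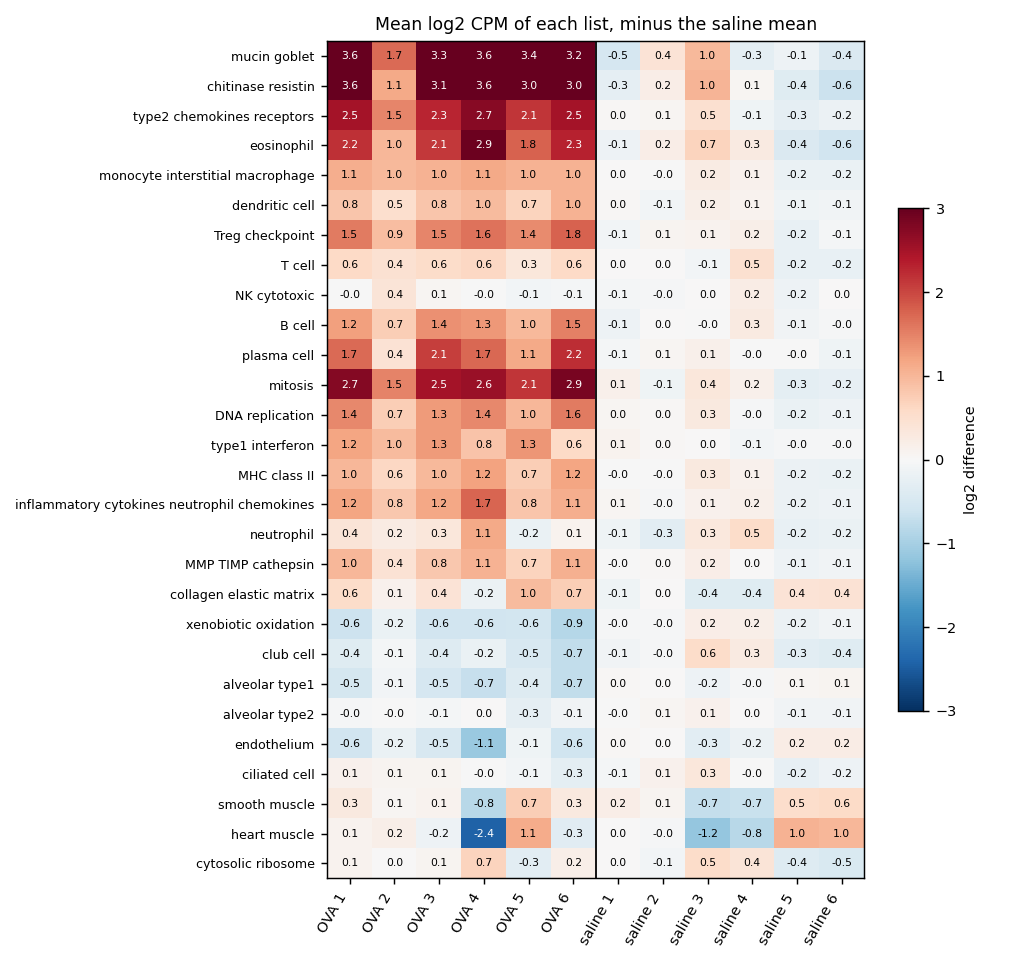
Rows are 28 gene lists and columns the 12 libraries, OVA lungs on the left; each cell is the mean log2 CPM of the list's tested members minus the mean of the saline libraries. Rows of goblet, chemokine, mitosis and plasma cell genes are high in all OVA columns and least so in OVA 2, and the muscle rows vary within both arms.

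Cytosolic ribosome genes gave 0 calls of 24 and respiratory chain genes 0 of 23, at medians of 0.11 and 0.06. At an unadjusted edgeR p under 0.05 there were 0 ribosome and 1 respiratory chain genes, DESeq2 called 0 and 0, and without the 3 shallowest libraries edgeR called 3 and 1. Glycolysis and glucose uptake genes gave 6 higher of 20, among them Hk3, a hexokinase of leukocytes (0.87 ± 0.14), and Slc2a3 (0.93 ± 0.18), while Pkm (0.11 ± 0.09) and Aldoa (-0.01 ± 0.11) did not pass. Without the 3 shallowest libraries 10 of this list rose. In the cholesterol and fatty acid list 4 of 25 rose and 2 fell, a share close to that of all genes, but without OVA replicate 1 only 1 rose and 0 fell. Without OVA replicate 3 it was 1 and 1, without OVA replicate 6 it was 2 and 0, and without saline replicate 1 or 2 it was 2 and 1. Scd1 (0.10 ± 0.17) and Fasn (-0.04 ± 0.17) did not pass.

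Clock genes gave 8 higher and 2 lower of 18. Arntl, the core activator BMAL1, stood at 10.8, 14.9 and 17.7 CPM in OVA lungs, against 23.2, 29.3 and 32.1 CPM in saline lungs (log2 fold change -0.96 ± 0.11, edgeR adjusted p = 3.71e-05), and Npas2, its partner, fell by 1.13. Dbp, a target of the clock, stood at 101, 129.5 and 188 CPM in OVA lungs, against 54.0, 70.7 and 99.7 CPM in saline lungs (log2 fold change 0.93 ± 0.17, edgeR adjusted p = 0.00122), Bhlhe40 and Bhlhe41, repressors of the clock, rose by 1.19 and 1.21, and Nr1d1 (0.11 ± 0.23) and Cry1 (0.06 ± 0.10) did not pass. The hour of collection is not given in the labels, so that a difference in hour and the arm cannot be told apart. In the list of immediate early and glucocorticoid genes 5 of 20 rose and 4 fell, with Egr2 up by 1.57, Fkbp5, a glucocorticoid target, up by 0.89 and Klf2, a factor of quiescent endothelium and T cells, down at log2 fold change -0.91 ± 0.18, edgeR adjusted p = 0.00244. Without saline replicate 5 or 6, 2 of this list fell. Fos (0.25 ± 0.19) and Sgk1 (-0.23 ± 0.09) did not pass. Growth factor and feedback genes gave 0 higher and 4 lower of 19, a share of calls close to the 23.6% of all genes. Over all genes 9.27% were called lower. In this list 8 were lower without the 3 shallowest libraries, and 2 were lower without OVA replicate 1 or saline replicate 2, 5 or 6. In the angiogenic, TGF-beta and IGF list 4 of 26 rose and 7 fell, and 12 fell without the 3 shallowest libraries. Igf1, insulin-like growth factor 1, stood at 21.9, 56.1 and 68.8 CPM in OVA lungs, against 11.1, 12.7 and 14.0 CPM in saline lungs (log2 fold change 2.06 ± 0.22, edgeR adjusted p = 1.95e-05), and Igfbp3, one of its binding proteins, at 53.3, 63.8 and 103 CPM in OVA lungs, against 105, 142 and 233 CPM in saline lungs (log2 fold change -1.15 ± 0.22, edgeR adjusted p = 0.00162), both without overlap and in opposite directions.

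**Figure D4:**
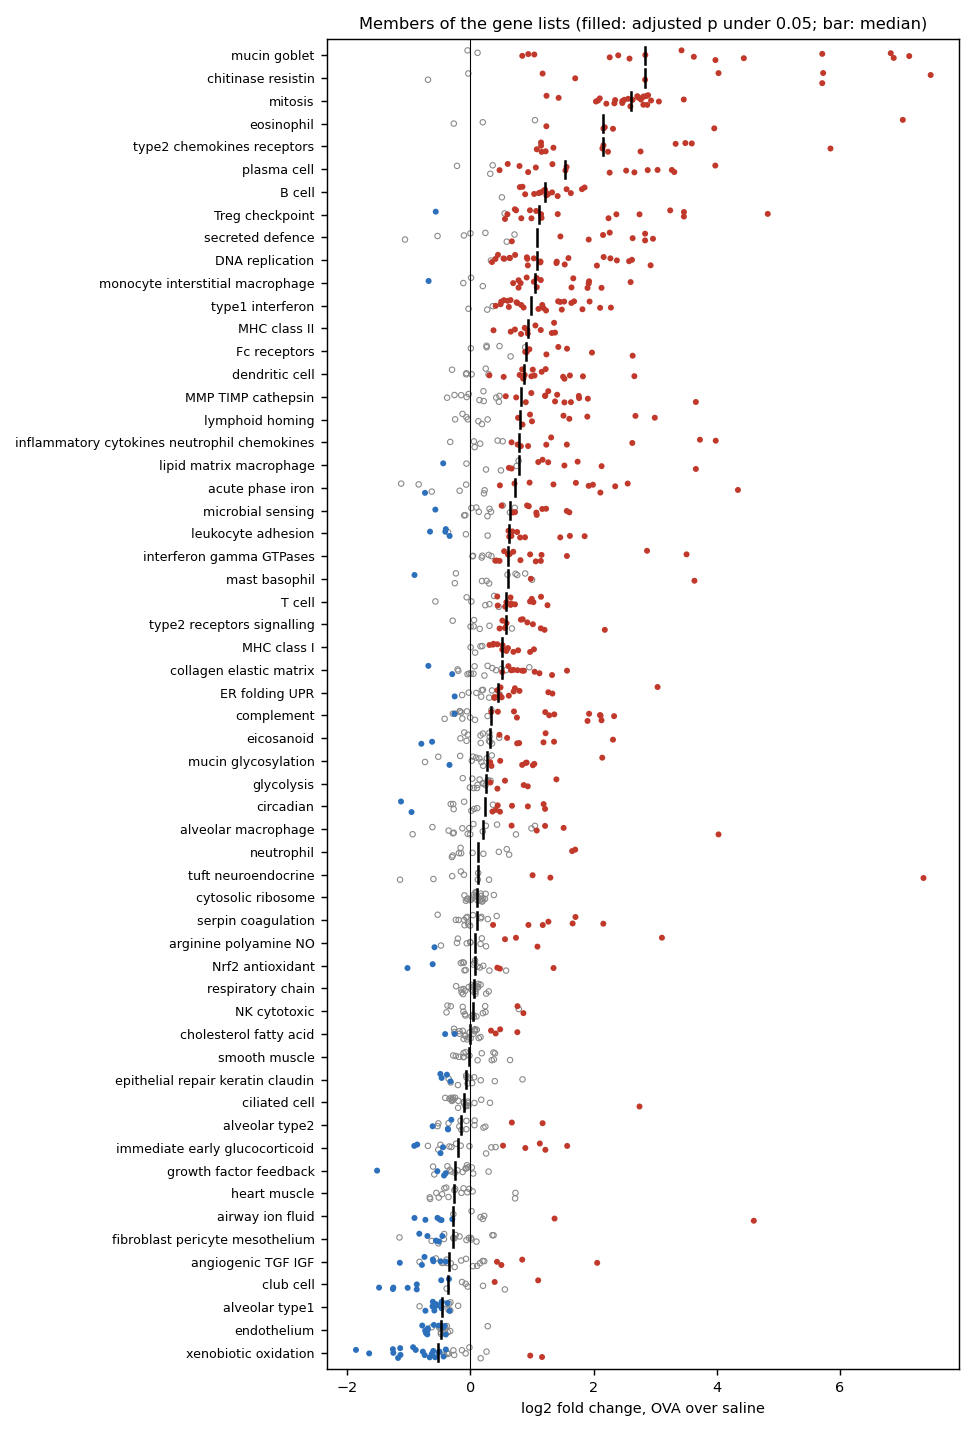
Each row is a gene list and each point a tested member, placed by its log2 fold change, OVA over saline; filled points passed the test (red higher, blue lower), open grey points did not, and black bars are medians. The lists run from goblet cell genes at the top, with a median of 2.84, to xenobiotic genes at the bottom, with a median of -0.52.

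The same contrast could be read a second time in lungs that had received PM, in 5 OVA and 5 saline libraries that share none with the 12 above. There 3244 of 14250 genes were called (22.8%), 1880 higher (13.2%) and 1364 lower (9.57%). The balance turned when libraries were scaled by their totals alone, with 1509 higher and 1922 lower. Of the 2100 genes higher without PM 1410 were also higher with PM, 67.1% of the calls without PM and 75.0% of those with PM. Of the 1356 lower genes 740 were also lower with PM, 54.6% of the calls without PM and 54.3% of those with PM, while calls in opposite directions numbered 3 among the higher and 0 among the lower genes. The PM libraries included OVA replicates of 0.303 M and 1.13 M counts. With PM and without PM, higher members numbered 26 and 26 in the mitosis list, 15 and 15 in the mucin and goblet list and 15 and 16 in the plasma cell list. In the type I interferon list they numbered 12 with PM and 25 without PM, of 28 tested in each. Of the inflammatory cytokine list 2 rose and 1 fell with PM, at a median of -0.09, against 10 and 0 without PM. Of the acute phase and iron list 2 of 17 rose and 4 fell with PM, at a median of -0.21, against 11 and 1 of 19 without PM. Such counts of calls, from sets that differ in number and depth of libraries, do not measure a difference between the effects. That difference has its own test below. As examples of genes that passed in both, the log2 fold changes with PM were 1.57 for Muc5b, 2.67 for Slc26a4, 4.68 for Rnase2a, 2.50 for Pdcd1, 3.57 for Mzb1, 2.51 for Ccnb1, -0.93 for Cyp2f2, -1.77 for Pon1 and -1.44 for Igfbp3.

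A test of the difference between both OVA effects, over all 22 libraries, called 14 of 14942 genes (0.0937%), and in all 14 the log2 fold change of OVA over saline was higher without PM than with PM. Levels here are scaled over all 22 libraries and differ slightly from those above. The genes were Cxcl3, Irg1, Saa3, Orm2, Cxcl13, Cxcl1, Rsad2, Lcn2, Orm1, Ccl7, Steap4, Serpina3n, Tnf and Cxcl5. Saa3 differed by 5.10 ± 0.58, edgeR adjusted p = 2.6e-05, and its medians in OVA and saline lungs were 145 and 7.44 CPM without PM and 159 and 358 CPM with PM. Cxcl3 differed by 3.94 ± 0.38, edgeR adjusted p = 3.26e-06, and its medians in OVA and saline lungs were 9.29 and 0.677 CPM without PM and 14.7 and 17.5 CPM with PM. Irg1, which makes the antimicrobial metabolite itaconate, differed by 4.66 ± 0.53, edgeR adjusted p = 2.6e-05, with medians in OVA and saline lungs of 2.89 and 0.235 CPM without PM and 3.02 and 5.24 CPM with PM. With PM, Irg1, Orm2 and Orm1 passed the edgeR test in the opposite direction, at log2 fold changes of -1.09, -2.16 and -1.48. In Saa3, Cxcl3 and Irg1 the median of saline lungs with PM lay above that of OVA lungs with PM. Cxcl13 differed by 2.03 ± 0.34, edgeR adjusted p = 0.0115, with 66.2 and 7.60 CPM without PM and 46.3 and 26.6 CPM with PM in OVA and saline lungs, and Rsad2, an antiviral enzyme, by 1.73 ± 0.30, edgeR adjusted p = 0.014, with 16.1 and 3.76 CPM without PM and 8.17 and 7.39 CPM with PM. Without OVA replicate 2 of the group without PM 27 genes were called, 1 of them with the lower log2 fold change without PM, and without saline replicate 1, 5 or 6 of that group the counts were 8, 9 and 9. Among the PM libraries, 8 were called without OVA replicate 6, 9 without saline replicate 1 and 8 without saline replicate 5. The PM groups hold both shallow OVA libraries named above.

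**Figure D5:**
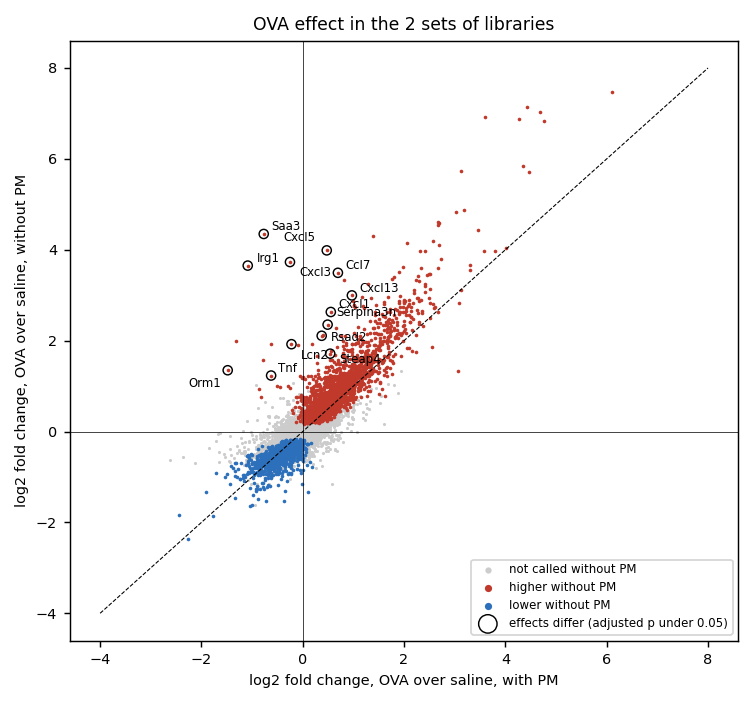
Each point is a gene tested in both sets of libraries, with the log2 fold change, OVA over saline, with PM on the horizontal and without PM on the vertical axis; the dashed line marks equal values. Circles mark 13 of the 14 genes whose effects differed, all above the line, and Orm2, under the expression filter without PM, is not drawn.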

How the data were processed

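Libraries were made with a stranded polyA kit from 400 ng of RNA and read single-end for 75 cycles, per the labels' protocols. The submitters' processing notes name bcl2fastq and mm10, and an aligner and counter are not given in the sources used here. Raw counts per gene and library were deposited by the authors, and their own table of log2 fold changes and adjusted p-values was used only for a comparison of calls. Of 24421 rows, 16 whose names had turned into dates were left out (0.152% to 0.185% of counts), and groups were taken from the labels. Genes passing filterByExpr (minimum count 10, total 15) were scaled by TMM and tested with edgeR 4.0.16 (quasi-likelihood F test, Benjamini-Hochberg threshold 0.05); the SE is the fold change divided by the root of F. On simulated data for this contrast (14562 genes) 41% of changes of 0.5 and 82% of changes of 1 on the log2 scale were recovered, with 6.82% false calls. Far fewer genes were changed there than the 3456 called here, all with a mean of at least 1 CPM. These rates therefore need not hold for the real contrast. Alternatives were DESeq2 1.42.0, other scalings and filters, an offset for length and GC, a fit of all 4 groups and leaving out libraries. Members and lists were chosen with earlier results of these data known. Named genes are the 15 largest changes each way without overlap (mean of at least 1 CPM), list members by smallest p or, where not called, by level, and the called genes of highest level. Irg1, Ddx3y, Eif2s3y, Kdm5d, Uty, Xist, Hba-a1 and Hbb-bs are named outside this rule, as are some list members chosen after their values were seen. Some genes that met the rule are not reported here.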

Additional observations from a re-analysis of the deposited data

Results flagged for a closer look

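Single libraries stood far from the other 5 of their group for 14 of 138 groups examined, 69 genes in both arms (10.1%). For a single group chance gives about 1 in 20. The genes share the same 12 libraries, so that the groups are not independent and the share cannot be weighed against that rate. In 12 of the 14 the library was OVA replicate 2. It was the lowest OVA library for Muc5ac (21.6 CPM), Retnla (2085 CPM), Itln1 (10.2 CPM), Slc26a4 (36.6 CPM), Scin (3.28 CPM) and Cd209e (3.02 CPM). It was also the lowest for Il1rl1 (6.87 CPM), Pdcd1 (4.66 CPM), Alox15 (15.3 CPM) and Igf1 (21.9 CPM), and the highest for Cyp2f2 (3510.0 CPM) and Kcne2 (20.3 CPM). Among saline lungs, replicate 3 stood high for Areg at 7.35 CPM, and replicate 4, a shallow library, stood low for Ccl7 at 0 CPM.

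The OVA effect differed between lungs without PM and lungs with PM in 14 genes by the test of the difference (edgeR adjusted p under 0.05), and the values are log2 fold changes without PM minus those with PM. They were 5.93 for Orm2 and 2.83 for Orm1, plasma carrier proteins of the acute phase, 5.10 for Saa3, 2.14 for Lcn2 and 1.86 for Serpina3n, a protease inhibitor. For the chemokines they were 3.94 for Cxcl3, 3.45 for Cxcl5, 2.77 for Ccl7, and 2.03 for both Cxcl1 and Cxcl13. They were 4.66 for Irg1, 1.82 for Tnf, 1.73 for Rsad2 and 1.17 for Steap4, a metalloreductase.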

How the results depend on the processing

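The count of genes called without PM, 3456, ranged over 3251 to 4238 with other scalings, filters, tools and designs, and over 2554 to 4127 when 1 library was left out, with 1724 to 2336 higher and 830 to 1791 lower. Without the 3 shallowest libraries, an alternative added after seeing the data, 2430 genes were higher and 1658 lower. With library totals 2042 were higher and 1209 lower. DESeq2 called 3902 and shared 3425 with edgeR. The authors' deposited table had 4138 genes under 0.05, of which 2071 were among the 2100 higher and 1348 among the 1356 lower genes. With PM the count, 3244, ranged over 2259 to 3483 without 1 library, and with library totals 1509 were higher and 1922 lower. The difference between the effects was called in 14 genes, in 24 with DESeq2 and in 8 to 27 without 1 library. With the replicate number as a block 4238 genes were called without PM. Same-numbered OVA and saline libraries correlated in their deviations at 0.0236, -0.0102, -0.0841, 0.386, 0.595 and 0.178. Differently numbered libraries reached 0.599 (OVA 5 with saline 6) and 0.458 (OVA 4 with saline 3), and went down to -0.52 (OVA 4 with saline 5). Whether the numbers pair the samples is not settled by these values. Of 185 called genes named in the text 180 passed under every alternative run, and Ccl6, Hspa5, Ikzf4, Scgb3a2 and Tslp did not. Among genes with any count in the 12 libraries the filter removed 4443, of which 191 were higher and 32 lower in the fit without it. Shallow libraries limit what can be said of low genes such as Il5. Lower calls of 1 gene in the folding, complement, checkpoint and microbial sensing lists were lost, and those of the eicosanoid list were 1 instead of 2, without several single libraries. The cause was not tested for any of these shifts. Genes that had not passed the test and turned sign under an alternative had log2 fold changes as follows. The values were Aldoa (0.01 with the offset, 0.04 without the 3 shallowest libraries, -0.07 to 0.06 without 1 library), Cd8b1 (0.12 without the 3 shallowest libraries, -0.16 to 0.04 without 1 library), Clec9a (-0.08 without the 3 shallowest libraries, -0.03 to 0.10 without 1 library), Cyp2e1 (-0.29 to 0.02 without 1 library), Eln (-0.05 without the 3 shallowest libraries, -0.12 to 0.16 without 1 library), F3 (-0.03 to 0.07 without 1 library), Fabp4 (-0.11 to 0.10 without 1 library). They were also Fasn (0.01 with the offset, -0.11 to 0.05 without 1 library), Herpud1 (0.01 without the 3 shallowest libraries, -0.06 to 0.01 without 1 library), Ifi35 (0.06 without the 3 shallowest libraries, -0.09 to 0.05 without 1 library), Il1a (-0.03 to 0.10 without 1 library), Ltbr (-0.11 to 0.02 without 1 library), Ly6c2 (-0.01 with DESeq2, -0.01 with the block, -0.14 to 0.11 without 1 library), Marco (0.01 with all 4 groups, 0.01 scaled to totals, 0.17 with the block, 0.80 without the 3 shallowest libraries, -0.53 to 0.77 without 1 library). They were also Muc20 (0.04 without the 3 shallowest libraries, -0.11 to 0.03 without 1 library), Nos2 (-0.23 to 0.09 without 1 library), Nr1d1 (-0.07 to 0.23 without 1 library), Postn (-0.01 with all 4 groups, -0.03 with the offset, -0.02 with the block, -0.11 to 0.07 without 1 library), Scd1 (-0.01 to 0.19 without 1 library), Scgb3a1 (-0.01 to 0.67 without 1 library), Serping1 (0.05 without the 3 shallowest libraries, -0.05 to 0.03 without 1 library). They were also Siglecf (-0.02 to 0.43 without 1 library), Timp2 (-0.08 to 0.02 without 1 library), Tlr3 (-0.01 with all 4 groups, -0.01 with the offset, -0.02 without the 3 shallowest libraries, -0.04 to 0.05 without 1 library), Wfdc2 (0.05 without the 3 shallowest libraries, -0.19 to 0.05 without 1 library), Xist (-0.21 to 0.19 without 1 library).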
